A study of Mus musculus with 4 samples.

Results

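Glycinergic inhibitory neurons were examined as a set of nuclei chosen by the transcripts of their transmitter machinery in single-nucleus RNA data from the mouse brain. A nucleus was taken as glycinergic when it held at least 1 UMI (unique molecular identifier, a count of 1 captured transcript) of Slc6a5, which encodes the neuronal glycine transporter GlyT2, and at least 1 UMI of Gad1, Gad2 or Slc32a1. It was also required to hold UMIs of at most 2 of 8 genes that mark cerebellar interneurons, namely Ntn1, Gldc, Kit, Megf10, Tfap2b, Pax2, Tfap2a and Tg. Barcodes entered when they had at least 500 UMIs and under 5% of their UMIs from mitochondrially encoded genes. The rule gave 84 nuclei of 16076, 14 from WT replicate 1, 26 from WT replicate 2, 27 from cKO replicate 1 and 17 from cKO replicate 2.

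The libraries came from snap-frozen hemispheres of C57BL/6 mice at postnatal day 14, with 2 libraries in each of 2 groups. The WT group carried Slc17a6-Cre with Ago2 wt/wt, and the group labelled Ago2 KO (cKO here) carried Slc17a6-Cre with Ago2 flox/flox, so all 4 libraries carried the Cre driver. Slc17a6 encodes the vesicular glutamate transporter VGLUT2, and the series is about loss of the Argonaute protein Ago2 from excitatory neurons that use it. Glycinergic neurons are thus not the cells the driver was chosen for. Separate animals are not stated for libraries of the same group, so p-values measure the spread between libraries, which may be technical. The design text speaks of cortical cells, while the protocol speaks of hemispheres.

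Glycinergic neurons release glycine, and many release GABA as well, onto chloride channels that inhibit the receiving cell. GlyT2 returns glycine to the terminal, the vesicular transporter VIAAT (Slc32a1) loads glycine and GABA into vesicles, and the enzymes encoded by Gad1 and Gad2 make GABA. Most glycinergic cell bodies of the brain lie in the brainstem, with others in the cerebellum, where Golgi cells use glycine and GABA. Hox transcription factors mark the hindbrain and spinal cord along the head-to-tail axis, and Pax2, Pax8, Lhx1 and Lhx5 are used by inhibitory neurons that arise there and in the cerebellum.

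The values that chose the nuclei are given as a description. Slc6a5 (ENSMUSG00000039728, chromosome 7, 49910146 to 49963856, plus strand, GRCm38) had 150 UMIs in the 84 nuclei, and 300 in all 16076. Its level in the summed UMIs was 194 and 222 CPM (counts per 1e6 UMIs of the set) in WT and 207 and 204 CPM in cKO, by replicate number. Most nuclei sat close to the lower limit: 56 had 1 Slc6a5 UMI and 28 had 2 or more, up to 14. Gad2 was detected in 59 nuclei, Gad1 in 39 and Slc32a1 in 29, and all 3 were detected together in 6. Gad2 alone supported 27 nuclei, Slc32a1 alone 12 and Gad1 alone 8, and 25 nuclei had a single UMI over these 3 genes.

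In all, 193 nuclei had an Slc6a5 UMI. Of those left outside the set, 73 lacked a UMI of Gad1, Gad2 and Slc32a1, and 36 had 3 or more of the 8 cerebellar genes. Just inside the limit on the 8 genes were 12 nuclei with 2 of them, and just outside were 26 nuclei with 3. The 84 nuclei had a median of 7109.5 UMIs (1128 to 32581), against 2983 in the 73 nuclei left out for lack of a GABA gene. Since a nucleus needed UMIs of 2 low transcripts, the rule favoured deep nuclei.

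Free RNA can place a UMI in a nucleus that does not express the gene. As a check, nuclei with UMIs of at least 3 oligodendrocyte markers or 3 astrocyte markers, the most abundant of each list not counted, were taken as oligodendrocyte and astrocyte nuclei. Slc6a5 had a UMI in 6 of 706 oligodendrocyte nuclei (0.850%, exact 95% interval 0.313 to 1.84%, median depth 3495.5 UMIs) and in 3 of 992 astrocyte nuclei (0.302%). A UMI of Gad1, Gad2 or Slc32a1 was found in 13.6% of these oligodendrocyte nuclei and 14.9% of the astrocyte nuclei. In all nuclei, a UMI of Slc6a5 was found in 193 of 16076. The part of free RNA among the 56 nuclei that rest on 1 Slc6a5 UMI, or the 25 that rest on 1 UMI of the 3 inhibitory genes, was not tested, and values are therefore also given for the 28 nuclei with 2 or more. Intervals here and below cover counting error only.

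Total UMIs per library were 13107920 and 29317266 in WT and 10845009 and 11439733 in cKO, and medians per nucleus were 2463.5, 3148, 2319 and 2427. WT replicate 1 stood apart: the mitochondrial limit removed 17.8% of its barcodes, against 5.64% to 8.78% in the others, and its median mitochondrial share was 0.512%, against 0.124% to 0.152%. Among the glycinergic nuclei the summed level of 8 oligodendrocyte markers was 1726 CPM in WT replicate 1 and 84 to 237 CPM in the other libraries. Of the kept barcodes, 30 occurred in 2 or more libraries. Results are therefore also given without this library where it matters.

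Most glycinergic nuclei shared one cluster. When all nuclei were clustered by their expression, 64 of the 84 (76.2%) fell in cluster 18, which held 1657 nuclei and was led by Glra1, 6330411D24Rik, Baiap3, Scn9a and Ebf2. No marker list gave this cluster a name, and it is called by its number. It held 26 of the 28 nuclei with 2 or more Slc6a5 UMIs. Of the 20 nuclei elsewhere, 6 were in cluster 10, whose leading genes were those of cerebellar interneurons, and 3 were in cluster 4, led by Cpa6, Dlx6os1 and Tshz1.

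**Figure D1:**
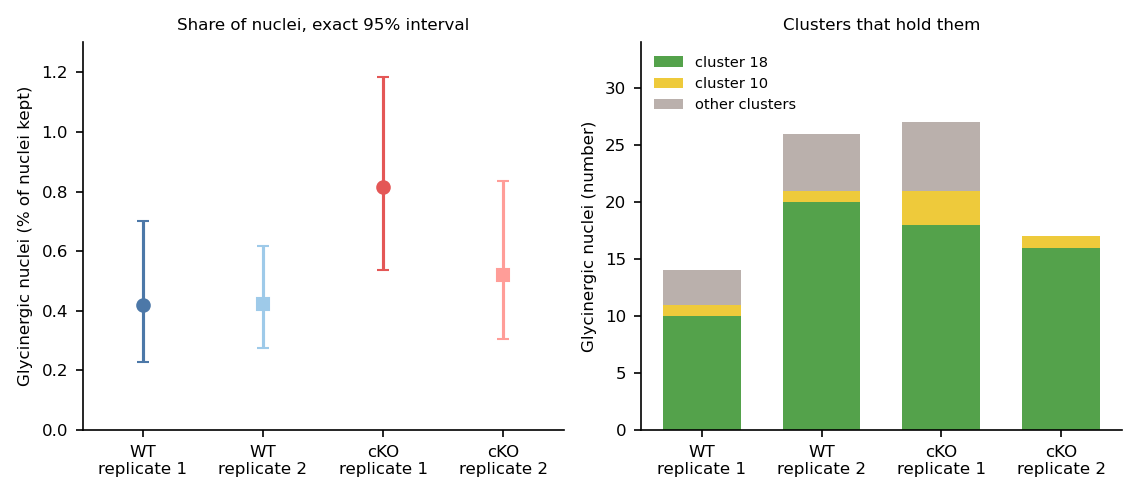
Left, glycinergic nuclei as a percentage of the nuclei kept in each library (points; bars are exact 95% intervals), and right, their number by cluster. The shares run from 0.419% in WT replicate 1 to 0.815% in cKO replicate 1 with overlapping intervals, and cluster 18 holds most of the nuclei in all 4 libraries.

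Cluster 18 was itself divided into 22 subclusters, and 3 of them held all but 14 of its 64 glycinergic nuclei. Subcluster 18 was the most enriched in the selecting gene: of its 41 nuclei, 22 had an Slc6a5 UMI and 13 were glycinergic by the rule, and its leading genes were Pax2, Pax8, Cdh3, Sall3, Slc6a5 and Hoxb3. Subcluster 5 held 24 glycinergic nuclei among 215 and was led by genes that included Syt2, which encodes a fast calcium sensor of transmitter release, and the neurofilament gene Nefm. Subcluster 2 held 13 among 219, and its leading genes included the transcription factors Ebf3, Ebf2 and Nfix. Subcluster 13, whose leading genes included the cerebellar granule cell genes Gabra6 and Fat2, held 5. These genes defined the subclusters and are not tested.

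The glycinergic nuclei were compared with 3 sets of nuclei of the same libraries, with UMIs summed per library and set and the library as a block in the fit. Other inhibitory nuclei (921) had at least 3 UMIs of Gad1, Gad2 and Slc32a1, no Slc6a5 and at most 2 of the 8 cerebellar genes. Of these nuclei, 289 lay in cluster 4, with olfactory and immature GABAergic markers, and 284 in cluster 18. A further 143 lay in cluster 11, with cortical interneuron markers, and 105 in cluster 13, with striatal spiny neuron markers. The part of this makeup in the differences below was not tested. Cerebellar inhibitory nuclei (281) had at least 1 UMI of the 3 inhibitory genes and 3 or more of the 8 genes, whatever their Slc6a5, and 36 of them had an Slc6a5 UMI. Slc17a6 nuclei (928) had a UMI of Slc17a6 and none of Slc6a5, Gad1, Gad2 and Slc32a1. Median depths were 5664, 3429 and 4925 UMIs. The 12 genes of the rules were left out of the calls, and because the 3 comparisons share the same glycinergic nuclei, their results are not independent of each other.

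Against other inhibitory nuclei, the glycinergic nuclei had more RNA of the glycine receptor gene Glra1, of the release genes Syt2 and Sv2c and of the signalling gene Gnas, and less RNA of Dlx6os1, Synpr, Meis2 and Reln. Of the 4 lower genes, Synpr kept its call when both sets were limited to cluster 18 (-0.96), while Reln (-1.04, edgeR adjusted p 0.196) and Meis2 (0.28) did not pass there and Dlx6os1 was not tested. Of 7414 genes tested, 119 were higher (1.61%) and 214 lower (2.89%) at an edgeR adjusted p under 0.05. DESeq2 called 59 and 133. The total of 333 became 194 when WT replicate 1 was omitted, 167 when WT replicate 2 was and 209 when cKO replicate 1 was. All 30 genes chosen as the most significant kept their call and direction without any 1 of the 4 libraries. Where sets are said below not to overlap, the share of all tested genes without overlap was not counted.

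Glra1 (ENSMUSG00000000263) encodes the adult alpha 1 subunit of the glycine receptor, which opens a chloride channel in the cell that receives glycine. In glycinergic nuclei its level was 324 and 233 CPM in WT and 207 and 121 CPM in cKO, by replicate number. In other inhibitory nuclei it was 20.2, 20.5, 31.8 and 40.9 CPM in the same order. The lowest glycinergic library was thus above the highest of the other set. The log2 difference was 2.93 (SE 0.28, edgeR adjusted p 1.99e-05). A UMI of Glra1 was found in 46 of 84 nuclei (54.8%), against 7.71% of other inhibitory nuclei, 14.8% of Slc17a6 nuclei and 2.27% of oligodendrocyte nuclei. After thinning each nucleus to 1000 UMIs, the first 2 shares were 16.7% and 1.63%. Within cluster 18, Glra1 was also found in 48.6% of the 111 nuclei of subcluster 10, which held 0 glycinergic nuclei. The other subclusters without glycinergic nuclei had it in 0.0% to 25.9%. In subcluster 18, Glra1 was in 85.4% of all 41 nuclei and in 10 of the 13 glycinergic ones. For subcluster 5 the values were 57.2% of 215 nuclei and 18 of 24, and for subcluster 2 they were 21.9% of 219 and 10 of 13. Nuclei beside the glycinergic ones thus held Glra1 too, most often in subcluster 18.

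Genes next to Glra1 in the genome were higher too. Glra1 lies on the minus strand of chromosome 11 from 55514238 to 55608198 (GRCm38). Gm12236, an antisense gene on the plus strand from 55514846 to 55527715, lies within it and reached 97.5 ± 19.1 CPM (SD, n = 4 libraries) against 13.2 ± 9.48, a log2 difference of 3.00 (SE 0.35, edgeR adjusted p 0.000115). Gm12239, also annotated as antisense, starts 164 kb beyond the Glra1 start, and reached 230.0 ± 60.4 CPM against 48.0 ± 2.63 (2.21, SE 0.18, edgeR adjusted p 4.3e-06). How the counting used strand is not given in the sources used here, so UMIs of Glra1 and Gm12236 cannot be told apart where they overlap.

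Of the glycine genes, the receptor gene Glra1 stood alone in passing the test. Of the 16 listed genes of glycine receptors and glycine handling, all had a UMI in the set and 9 were tested. Of these, 1 was higher and 0 lower, beside 1.61% and 2.89% of all genes tested. Their median log2 difference was 0.17, against 0.00044 over all genes tested. Glra3, another alpha subunit, was at 86.3, 61.2, 83.8 and 57.3 CPM against 21.3, 44.5, 24.5 and 50.05 CPM, with a log2 difference of 0.92 that did not pass (SE 0.32, edgeR adjusted p 0.13). The beta subunit gene Glrb differed by 0.45 (SE 0.17, edgeR adjusted p 0.181). Gphn, which encodes the scaffold gephyrin that holds glycine and GABA receptors at synapses, was at 739 to 863 CPM against 785 to 945 CPM. Slc6a9, which encodes the mainly glial transporter GlyT1, had 10 UMIs in 8 nuclei and was not tested.

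For Gad1, Gad2 and Slc32a1 the limits of the 2 rules differ (1 UMI against 3), so their levels are not compared. Of 8 genes that set the chloride gradient, 5 were tested and 0 passed, and the potassium-chloride exporter gene Slc12a5 was at 118 to 172 CPM against 81.8 to 105 CPM (log2 difference 0.53, edgeR adjusted p 0.118).

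**Figure D2:**
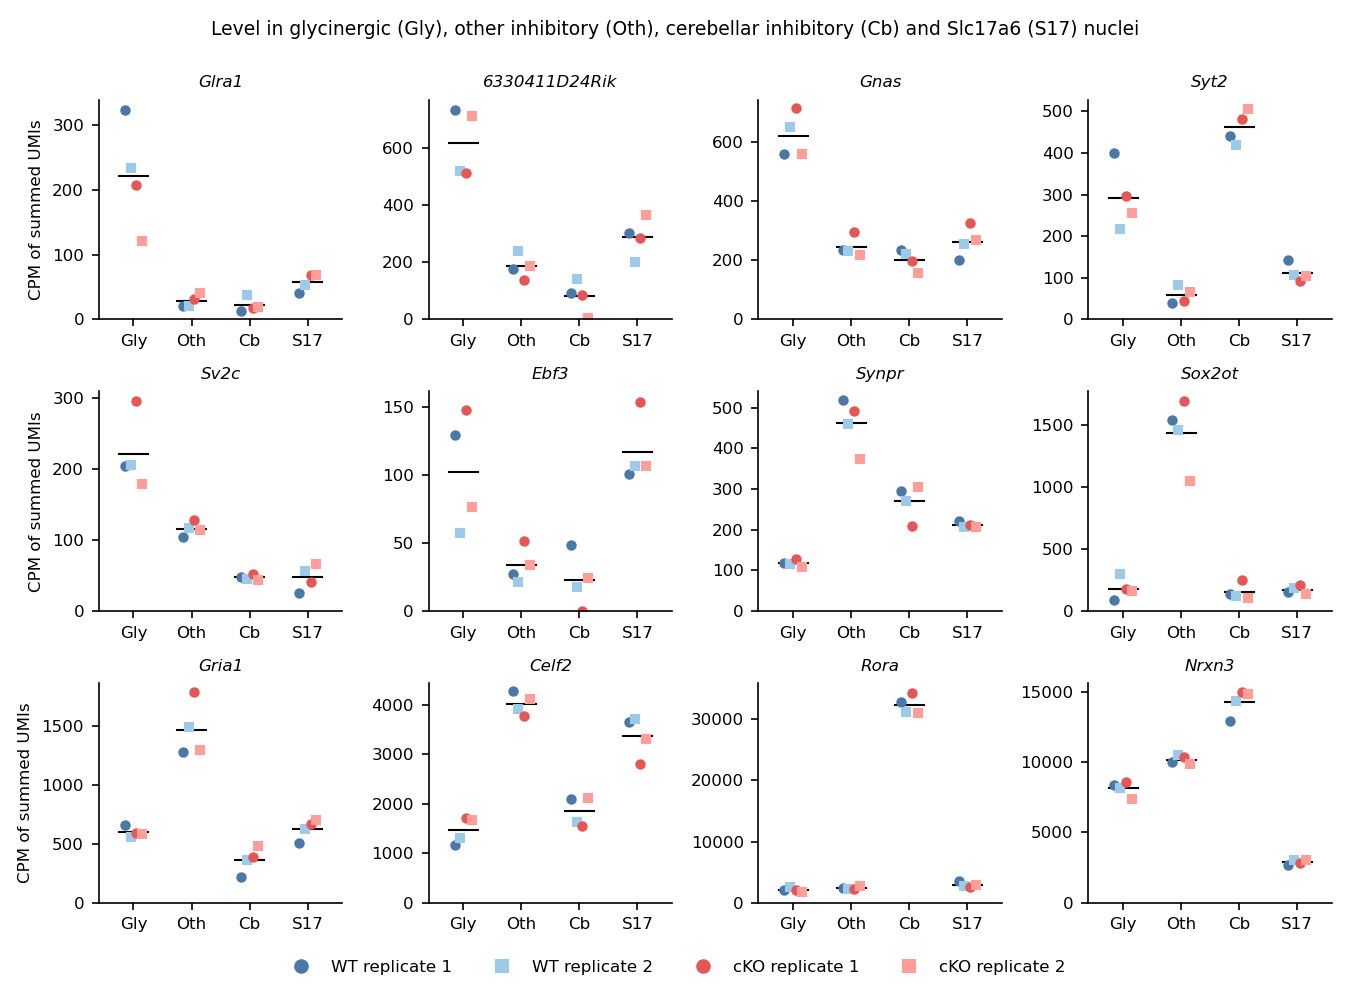
Level per library (points) and mean over the 4 libraries (line) of 12 genes in glycinergic, other inhibitory, cerebellar inhibitory and Slc17a6 nuclei, in CPM of the UMIs summed per library and set. Glra1 and Sv2c are highest in glycinergic nuclei, Syt2 and Rora in cerebellar inhibitory nuclei, and Synpr and Sox2ot in other inhibitory nuclei.

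Of 23 listed release genes, 21 were tested, 2 were higher and 1 lower, with a median log2 difference of 0.17. Over all genes tested, 1.61% were higher and 2.89% lower. Syt2, the synaptotagmin of fast synapses in the brainstem and cerebellum, was at 399, 218, 296 and 255 CPM in glycinergic nuclei and 39.4, 82.8, 45.4 and 65.4 CPM in other inhibitory nuclei. The groups did not overlap, and the log2 difference was 2.18 (SE 0.25, edgeR adjusted p 8.29e-05). Sv2c, a synaptic vesicle glycoprotein gene, was at 178 to 296 CPM against 104 to 128 CPM (0.87, SE 0.17, edgeR adjusted p 0.00716). Syt1, the synaptotagmin of most forebrain synapses, was lower, at 1516 to 1974 CPM against 2411 to 2773 CPM (-0.64, SE 0.13, edgeR adjusted p 0.0116). Sv2c and Syt2 were found in 61.9% and 51.2% of glycinergic nuclei, in 30.6% and 21.4% of other inhibitory nuclei, and in 3.40% and 6.52% of oligodendrocyte nuclei.

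Of 24 listed channel and neurofilament genes of fast-firing neurons, 17 were tested, 2 were higher and 1 lower (median 0.25). The shares over all genes tested were 1.61% higher and 2.89% lower. Kcna1, a potassium channel subunit of axons, was at 64.7, 111, 59.1 and 115 CPM against 33.6 to 53.6 CPM (1.00, SE 0.24, edgeR adjusted p 0.0266). Nefm, a neurofilament subunit gene, had no UMI in WT replicate 1 and 44.4 to 57.3 CPM in the other 3 libraries, against 3.63 to 19.2 CPM (1.97, SE 0.46, edgeR adjusted p 0.0212), so for this gene the groups overlapped. Kcnc2, a potassium channel subunit of fast-spiking neurons, was lower on the fitted scale (-0.78, SE 0.17, edgeR adjusted p 0.0145) at 280 to 529 CPM against 436 to 929 CPM, which overlapped.

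Receptor genes for GABA and glutamate that passed the test were all lower in glycinergic nuclei. Of 15 GABA-A receptor genes, 13 were tested, 5 were lower and 0 higher, with a median of -0.62. Over all genes tested, 2.89% were lower and 1.61% higher. The 5 were Gabra2, Gabra4, Gabrb2, Gabrg3 and Gabrd, and none of them passed within cluster 18, where Gabrd was not tested. Gabra4 was at 26.8 to 44.6 CPM against 82.7 to 102 CPM (-1.49, SE 0.27, edgeR adjusted p 0.00514). Gabrd, whose subunit forms receptors outside synapses, had 1 UMI in the 84 nuclei, against 18.2 to 29.8 CPM in the other set (edgeR adjusted p 0.0106). Of 24 glutamate receptor genes, 22 were tested, 5 were lower (Gria1, Gria2, Grin2b and Grm5 among them) and 0 higher, with a median of -0.17.

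Gria1, an AMPA receptor subunit gene, was at 658, 554, 591 and 586 CPM in glycinergic nuclei and at 1273, 1488, 1781 and 1293 CPM in other inhibitory nuclei. The 2 sets did not overlap, and the log2 difference was -1.34 (SE 0.15, edgeR adjusted p 5.85e-05). Grin2b, an NMDA receptor subunit gene, differed by -0.81 (SE 0.14, edgeR adjusted p 0.00443). Gria4, which encodes another AMPA subunit, was at 1267 to 1617 CPM against 1353 to 1431 CPM (log2 difference 0.04, SE 0.13, edgeR adjusted p 0.918).

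**Figure D3:**
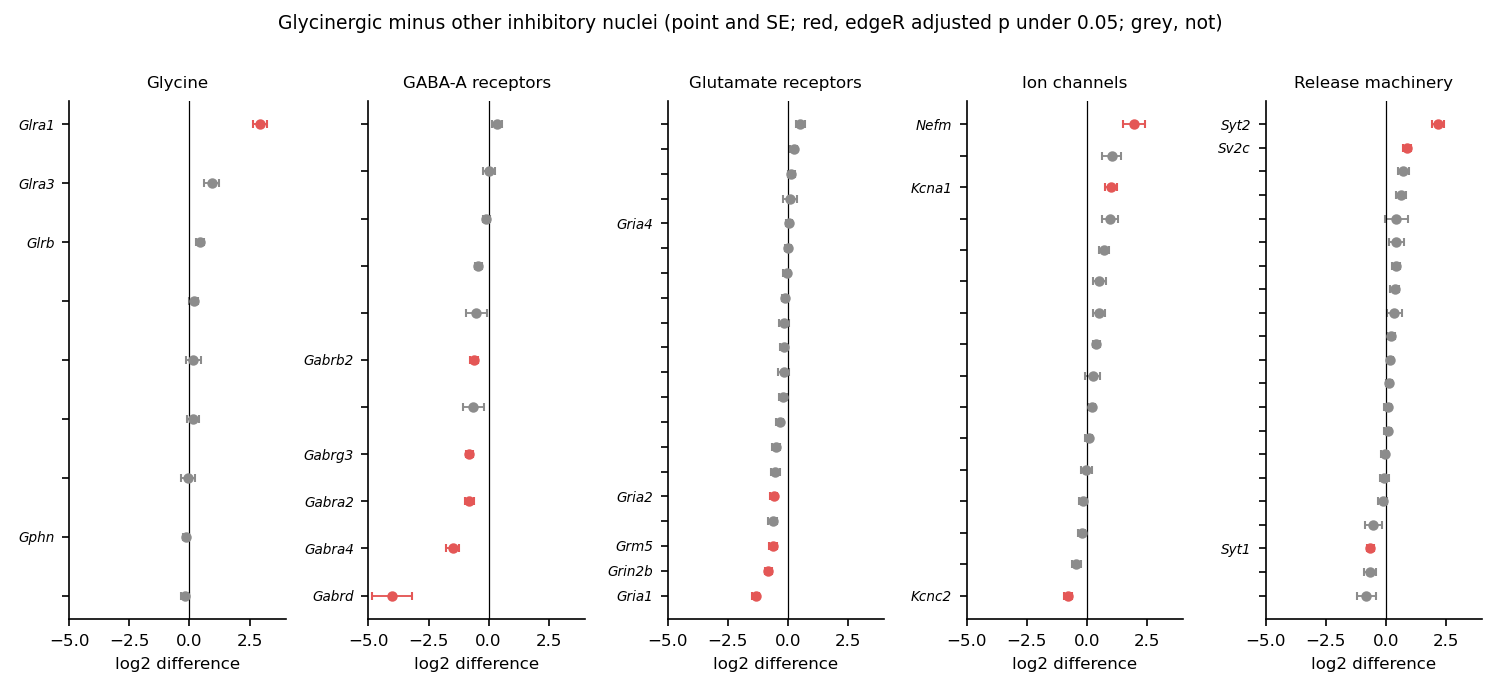
Log2 difference (glycinergic minus other inhibitory nuclei, point and SE) of tested genes in 5 gene lists, with the genes described in the text labelled; red marks an edgeR adjusted p under 0.05. In the lists of GABA-A and glutamate receptor genes all red points lie left of 0, while Glra1 and Syt2 lead their lists on the right.

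Of 29 genes of position along the brain axis, 19 had a UMI, 4 were tested and 2 were lower, beside 2.89% of all genes tested. Meis2, which is high in striatal and olfactory inhibitory neurons, was at 539, 803, 547 and 516 CPM against 1150.3 to 1765 CPM (-1.31, SE 0.18, edgeR adjusted p 0.000479), and Pbx3 was at 248 to 562 CPM against 688 to 889 CPM (-1.19, SE 0.20, edgeR adjusted p 0.00319). Dlx6os1, the long RNA of the Dlx5 and Dlx6 locus that serves forebrain inhibitory neurons, had a UMI in 7 of 84 nuclei (8.33%), against 51.0% of other inhibitory nuclei and 3.82% of oligodendrocyte nuclei. Its log2 difference was -3.45 (SE 0.33, edgeR adjusted p 1.99e-05).

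Of 42 genes of hindbrain and spinal inhibitory lineages, 32 had a UMI, 14 were tested, 2 were higher and 3 lower (median 0.16), where 1.61% and 2.89% of all genes tested were. Ebf3 was higher, at 129, 57.3, 148 and 76.4 CPM against 27.7, 21.8, 51.8 and 33.7 CPM (1.50, SE 0.25, edgeR adjusted p 0.00281). Ebf2 was higher by 1.34 (SE 0.37, edgeR adjusted p 0.0483), with overlapping libraries (12.7 to 119 CPM against 4.09 to 40.9 CPM). Foxp1, Foxp2 and Nfib were lower, Foxp1 by -1.13 (SE 0.18, edgeR adjusted p 0.0017). Ebf2 was also among the leading genes of cluster 18, and Ebf3 was at 0.82 and no longer passed within that cluster (edgeR adjusted p 0.198).

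The other genes with the smallest p among those higher were 6330411D24Rik, Gnas, Poln, Cabp1, Vwa5b2, Gm13629, Ubap1l, Pdcd7, Dach1 and Cux2. 6330411D24Rik was at 733, 520, 513 and 713 CPM against 140 to 241 CPM (1.67, SE 0.17, edgeR adjusted p 2.79e-05). Gnas, which encodes the stimulatory G protein alpha subunit, was at 561, 650, 715 and 560 CPM against 218 to 297 CPM (1.31, SE 0.14, edgeR adjusted p 3.53e-05). Cabp1, a calcium-binding protein gene, was higher by 1.43 (SE 0.20, edgeR adjusted p 0.000798). With at least 3 UMIs of Gad1, Gad2 and Slc32a1 asked of the glycinergic nuclei too, Cabp1 (1.07, edgeR adjusted p 0.105), Vwa5b2 (0.80) and Pdcd7 (0.96) lost their call. For 6330411D24Rik, Gnas and Cabp1 the 2 sets did not overlap in any library, but these genes were named for their small p.

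The genes with the smallest p among those lower were Sox2ot, Gm38505, Synpr, Reln, Dlx6os1, Celf2, Gria1, Zeb2, Rarb, Itpr1, Bcl11a, Cpa6, Ptpro, Auts2 and Cpne4. Sox2ot, the long RNA that overlaps Sox2, was at 86.3, 302, 182 and 159 CPM against 1049.9 to 1693 CPM (-2.95, SE 0.21, edgeR adjusted p 1.78e-06). Synpr, a synaptic vesicle protein gene, was at 119, 115, 128 and 108 CPM against 375 to 519 CPM (-2.00, SE 0.17, edgeR adjusted p 4.3e-06). Reln, the secreted guidance protein reelin, was at 34.5 to 111 CPM against 197 to 514 CPM (-2.13, SE 0.20, edgeR adjusted p 1.64e-05). Rarb, a retinoic acid receptor gene high in striatal neurons, was lower by -1.98 (SE 0.22, edgeR adjusted p 8.29e-05).

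Because 284 of the other inhibitory nuclei also lay in cluster 18, the comparison was repeated within that cluster, an alternative chosen after seeing the data. Of 5051 genes tested, 17 were higher (0.337%) and 18 lower (0.356%), and 32 of these 35 were among the 333 above. Glra1 was again higher, by 1.94 (edgeR adjusted p 0.00117), as were Gm12239 (1.44), Gm12236 (2.05), 6330411D24Rik (1.19), Syt2 (1.81), Sv2c (1.33), Gnas (0.80), Cabp1 (1.24), Dach1 (1.05) and Cux2 (0.79). Sox2ot (-2.84), Gm38505 (-3.23), Synpr (-0.96) and Gria1 (-0.82) were again lower. Of the 30 genes with the smallest p, 28 were tested there, 13 kept their call and 15 lost it. Those lost were Vwa5b2, Ebf3, Gm13629, Ubap1l and Pdcd7 among the higher genes. Among the lower genes they were Reln (-1.04, edgeR adjusted p 0.196), Celf2 (-0.67), Ptpro (-1.01), Itpr1, Bcl11a, Cpne4, Rarb (-0.34), Auts2 (-0.32), Zeb2 (-0.30) and Cpa6 (-0.09). Dlx6os1 and Poln were not tested in the cluster, and none of the 5 GABA-A receptor genes passed, with Gabrd no longer tested. Meis2 and Pbx3 turned positive without passing (0.28 and 0.36), and Kcna1 (0.96), Nefm and Syt1 (-0.40) did not pass either. Meis1, a cofactor of Hox proteins, was higher within the cluster by 1.84 (edgeR adjusted p 0.000793) but not over all nuclei (0.56, edgeR adjusted p 0.0616).

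Marker lists of other cell types gave the makeup of the set, with tests against other inhibitory nuclei, where 1.61% of all genes were higher and 2.89% lower. Of 8 oligodendrocyte markers, all had a UMI, 3 were tested and 0 passed, and their summed levels by library are given above. Of 8 astrocyte markers, 4 were tested and 1 (Slc4a4) was lower, with a summed level of 229 to 529 CPM over libraries. Of 13 cerebellar interneuron markers, 8 were in the rule, 12 had a UMI and 0 of 4 tested passed. The summed levels were 49.7 to 82.8 CPM for 6 glutamatergic markers, 84 to 127 CPM for 6 granule cell markers and 64 to 92 CPM for 7 microglia markers, in which Tmem119, C1qa and C1qb were at 0. Of 8 striatal spiny neuron markers, 7 had a UMI (Drd2 in 9 nuclei), 2 were tested and Rgs9 was lower, and the sum was 76.4 to 113 CPM. Of 6 Purkinje cell markers, 4 had a UMI, 3 were tested and Itpr1 and Car8 were lower, with a sum of 75.5 to 153 CPM. Cortical interneuron markers summed to 1035 and 1716 CPM in WT and 2489 and 2216 CPM in cKO, most of it Adarb2, which was at 906, 1586, 2262 and 2165 CPM. Of these 8 markers 4 were tested and Prox1 was lower. Of 8 markers of olfactory and immature GABAergic neurons, 4 were tested, Meis2, Tshz1 and Dcx were lower, and the sum was 624 to 1043 CPM. The markers Chat, Slc18a3, Slc6a3, Slc6a4 and Hdc of cholinergic and monoaminergic neurons were at 0, as were the striatal marker Drd1, the Purkinje cell markers Pcp2 and Ppp1r17, the granule cell marker Cbln3, the cortical marker Nkx2-1 and the olfactory markers Sp8 and Dlx2. Peptide and calcium-binding protein genes were sparse: 22 of 27 had a UMI, 4 were tested and 0 passed, and the most often detected peptide gene among Sst, Npy, Penk and Tac1 was Sst, in 11 nuclei.

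Against cerebellar inhibitory nuclei the difference was broad. Of 3723 genes tested, 442 were higher (11.9%) and 436 lower (11.7%) in glycinergic nuclei at an edgeR adjusted p under 0.05. Since 3 or more of the 8 cerebellar genes chose one set and at most 2 the other, genes that go with those 8 had to differ, and their direction is part of the choice of sets. Rora, a nuclear receptor gene of cerebellar neurons, was at 2136, 2622, 2149 and 1739 CPM in glycinergic nuclei and at 31013 to 34258 CPM in cerebellar inhibitory nuclei (log2 difference -3.97, SE 0.14, edgeR adjusted p 2.59e-12). Unc5c, a netrin receptor gene, was lower by -2.90 (SE 0.15, edgeR adjusted p 5.97e-10), at 755 to 962 CPM against 5632 to 6830 CPM.

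Among the genes higher than in cerebellar inhibitory nuclei were Cntnap2, a cell adhesion gene of axons (1.92, SE 0.15), and the serotonin receptor gene Htr2c (3.09, SE 0.25). Robo1, a receptor gene for Slit guidance proteins, was higher by 1.86 (SE 0.16), and Fstl5 by 2.39 (SE 0.20), with edgeR adjusted p of 3.07e-07 and 2.55e-07. Htr2c was at 841, 749, 848 and 420 CPM against 48.7 to 126 CPM. The glycine receptor genes Glra1 (3.14, SE 0.32) and Glra3 (2.42, SE 0.47) were both higher, with edgeR adjusted p of 1.28e-06 and 0.000828. Syt2 differed in the other direction from the first comparison: its 218 to 399 CPM lay below the 420 to 505 CPM of cerebellar inhibitory nuclei (-0.76, SE 0.19, edgeR adjusted p 0.00528). Sv2c, at 178 to 296 CPM against 43.7 to 52.2 CPM, was higher by 2.13 (SE 0.23, edgeR adjusted p 2.47e-06).

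Receptor subunits divided in this comparison. Of 15 GABA-A receptor genes 8 were tested, 3 were higher and 3 lower. Gabrb2, a beta subunit gene, was lower by -1.42, and Gabra3, Gabrb1 and Gabrg3 were higher by 1.15, 1.11 and 1.23, all past the edgeR threshold. Of 24 glutamate receptor genes, 22 were tested, 7 were higher and 7 lower, beside 11.9% and 11.7% of all genes tested.

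Against Slc17a6 nuclei, 87 of 7595 genes were higher (1.15%) and 184 lower (2.42%) at an edgeR adjusted p under 0.05. DESeq2 called 43 and 71. Omitting WT replicate 1 left 155 calls of 271, omitting WT replicate 2 left 88, and omitting cKO replicate 1 left 136. Nrxn3, which encodes a presynaptic adhesion protein, was at 8359, 8153, 8606 and 7400.3 CPM against 2661 to 3061 CPM, and differed by 1.45 (SE 0.11, edgeR adjusted p 1.1e-06). Sv2c (2.17, SE 0.24), Gnas (1.22, SE 0.14), Syt2 (1.33, SE 0.17) and Glra1 (1.85, SE 0.25) were higher here too, with edgeR adjusted p from 2.22e-05 to 0.000224. Adarb2, a marker of some cortical interneurons, was higher by 1.26 (SE 0.18, edgeR adjusted p 0.000443), and Esrrg, an orphan nuclear receptor gene, by 0.94 (SE 0.15, edgeR adjusted p 0.00102). Fbxl7 was higher by 1.43 (SE 0.23, edgeR adjusted p 0.00163), and lost its call without WT replicate 2 (1.04, edgeR adjusted p 0.0761). Among nuclei with 2 or more Slc6a5 UMIs, Adarb2 (0.88, edgeR adjusted p 0.140), Nxph1 (0.60) and Adra1a (1.04) lost theirs.

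The genes with the smallest p among those lower than in Slc17a6 nuclei began with Tcf7l2, Cacna2d1, Lef1 and Ptprd. Tcf7l2, a Wnt pathway factor high in the thalamus, was at 32.4, 11.5, 4.93 and 57.3 CPM against 228 to 352 CPM (-3.64, SE 0.31, edgeR adjusted p 2.52e-06). Lef1, another factor of that pathway, had 1 UMI in the 84 nuclei against 63.4 to 199.7 CPM (edgeR adjusted p 2.52e-06). The calcium channel subunit gene Cacna2d1 was lower by -2.20 (SE 0.19, edgeR adjusted p 2.52e-06), and the netrin-G genes Ntng1 and Ntng2 by -1.59 and -2.28 (edgeR adjusted p 0.000221 and 0.000224). In contrast Cacna2d2 and Cacna2d3 of the same channel family were higher, by 1.20 and 0.86 (edgeR adjusted p 0.00148 and 0.00156), though within cluster 18 Cacna2d2 was at 0.72 and did not pass (edgeR adjusted p 0.0643).

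Of the listed GABA-A genes, 13 were tested, 4 were lower (Gabra4, Gabrb2 and Gabrd among them) and 0 higher, beside 2.42% and 1.15% of all genes tested. Of the glutamate receptor genes, 23 were tested, and Gria3 was higher by 0.63. The release genes Sv2b, Syt1, Unc13b and Stx1a were lower and Sv2c and Syt2 higher, out of 22 tested. Within cluster 18, which also held 383 of the Slc17a6 nuclei, 26 of 5207 genes were higher (0.499%) and 69 lower (1.33%), and 78 of these 95 were among the 271. Nrxn3 (1.71), Sv2c (1.96), Glra1 (1.20) and Syt2 (0.89) were again higher, and Tcf7l2 (-3.30), Cacna2d1 (-2.52) and Ptprd (-1.12) again lower. Of the 30 genes with the smallest p, 29 were tested there, 26 kept their call, and Nxph1 (0.56), Cacna2d2 and Adra1a (1.08) lost it.

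Hox transcripts were found in the glycinergic nuclei more often than in the comparison sets and the glial nuclei, each taken as a whole. A UMI of any of 39 Hox genes was present in 27 of 84 nuclei (32.1%, exact 95% interval 22.4 to 43.2%), with 25.9% to 42.3% per library. It was present in 2.28% of other inhibitory nuclei, 2.49% of cerebellar inhibitory nuclei and 4.85% of Slc17a6 nuclei. In oligodendrocyte nuclei the share was 0.992%, and in astrocyte nuclei 2.72%, at median depths of 3495.5 and 3156.5 UMIs. Thinned to 1000 UMIs, the shares were 7.14% and 0.436% in glycinergic and other inhibitory nuclei. Hoxb3 was the most frequent, in 18 nuclei with 23 UMIs, followed by Hoxa3 in 7 and Hoxb5, Hoxc4 and Hoxd3 in 6 each. Hoxa2 and Hoxb6 were in 2 nuclei each and Hoxb2 and Hoxb4 in 1 each. Within cluster 18, nuclei outside the glycinergic set held Hox transcripts too. Hoxb3 was in 33.3% of the 27 nuclei of subcluster 15 and 12.6% of the 111 of subcluster 10, neither with a glycinergic nucleus. In the other subclusters without glycinergic nuclei it was in at most 2.38%. Subcluster 18, which did hold glycinergic nuclei, had Hoxb3 in 48.8% of all its 41 nuclei and in 6 of its 13 glycinergic nuclei. Hoxb3 was thus not particular to the glycinergic nuclei there. No Hox gene reached the level needed for the edgeR test between sets of nuclei or between genotypes, so these are descriptions of shares.

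**Figure D4:**
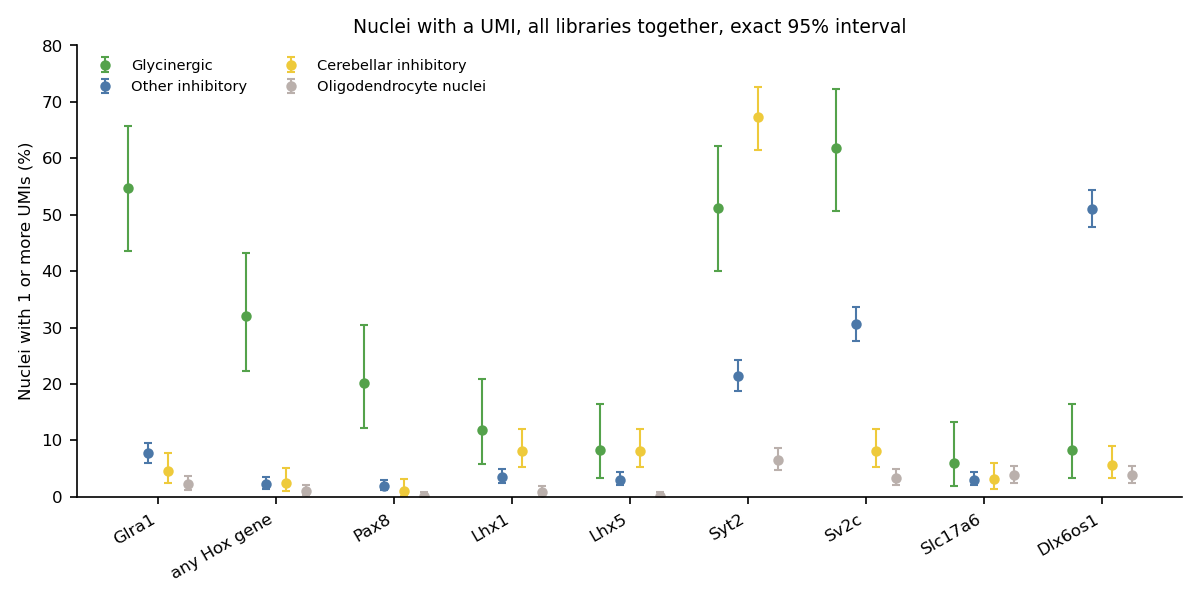
Percentage of nuclei with at least 1 UMI of a gene in 4 sets, over all libraries together (points; bars are exact 95% intervals, counting error only). Glra1, Hox genes, Pax8 and Sv2c are more frequent in glycinergic nuclei, and Dlx6os1 is frequent in other inhibitory nuclei.

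Pax8, a paired box gene of hindbrain inhibitory lineages, was found in 17 nuclei (20.2%). Its share was 1.95% in other inhibitory nuclei, 1.07% in cerebellar inhibitory nuclei and 0.142% in oligodendrocyte nuclei. With nuclei thinned to 1000 UMIs, Pax8 was in 3.57% of glycinergic, 0.109% of other inhibitory and 0.0% of cerebellar inhibitory nuclei. Subcluster 18 had Pax8 in 51.2% of all its 41 nuclei and in 5 of its 13 glycinergic nuclei. Lhx1 was found in 10 nuclei (11.9%) and Lhx5 in 7 (8.33%), against 0.850% and 0.142% of oligodendrocyte nuclei. The shares were 3.58% and 3.04% in other inhibitory nuclei and 8.19% for each gene in cerebellar inhibitory nuclei. Thinned to 1000 UMIs, Lhx1 was in 0.0% of glycinergic, 0.654% of other inhibitory and 2.53% of cerebellar inhibitory nuclei. Lhx5 was in 2.38%, 0.436% and 3.25% in the same order. Pax2, in 27 nuclei, was among the 8 genes whose number the rule limits, so its share is a result of the rule. Gata3, a gene of another inhibitory lineage of the hindbrain and midbrain, was in 1 nucleus, and Otx2, a forebrain and midbrain factor, in 0.

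These genes were unevenly spread among the 84 nuclei. Within cluster 18, 25 of 64 nuclei had a Hox UMI, 44 had Glra1 and 16 had Pax8, while outside it the counts were 2, 2 and 1 of 20, at median depths of 8116.5 and 3433 UMIs. Nuclei with 2 or more Slc6a5 UMIs (median depth 10271.5) had a Hox UMI in 13 of 28 and Glra1 in 23. Nuclei with 1 Slc6a5 UMI (median depth 6103) had them in 14 and 23 of 56. In all, 52 nuclei had Glra1 or a Hox gene, 21 had both and 32 had neither. In the 3 main subclusters, Pax8 was in 5 of 13 nuclei of subcluster 18, 5 of 24 of subcluster 5 and 5 of 13 of subcluster 2. Syt2 was in 11 of 13, 22 of 24 and 2 of 13 in the same order. Since the clusters were built from these genes, the counts are a description and are not tested.

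The share of glycinergic nuclei was 0.419% in WT replicate 1, 0.422% in WT replicate 2, 0.815% in cKO replicate 1 and 0.522% in cKO replicate 2. Both cKO libraries were above both WT libraries, with a difference of 0.248 percentage points and a two-sided exact permutation p of 0.333, the smallest that 2 against 2 libraries allow. With 2 or more Slc6a5 UMIs the shares were 0.0897%, 0.211%, 0.211% and 0.153%, and the groups overlapped. With nuclei thinned to 1000 UMIs they were 0.101%, 0.0680%, 0.260% and 0.0%, and the groups overlapped too. Cluster 18 as a whole took 7.89% and 8.69% of WT nuclei and 12.5% and 13.7% of cKO nuclei. As a share of cluster 18, its glycinergic nuclei were 3.79% and 3.74% in WT and 4.36% and 3.60% in cKO, which overlapped. How far the tissue taken for each library moved these shares was not tested.

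The genotype comparison asks whether glycinergic nuclei differ when Ago2 is floxed in brains with Slc17a6-Cre. Ago2 (chromosome 15, 73095844 to 73184935, GRCm38), the targeted gene, was at 97.1 and 57.3 CPM in WT and at 64.1 and 63.7 CPM in cKO, from 9, 15, 13 and 10 UMIs. The cKO values lay between the WT values. The log2 change was -0.15 (SE 0.48, edgeR p 0.760, adjusted p 0.995). Which exons were floxed is not given in the labels, so a UMI at the 3′ end is no test of recombination. Slc17a6 had a UMI in 5 of 84 glycinergic nuclei (5.95%), against 3.04% of other inhibitory nuclei and 3.82% of oligodendrocyte nuclei, and its earlier expression was not measured. Of 16 miRNA pathway genes 9 were tested and 0 passed.

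No gene passed the test between genotypes. Of 3576 genes tested, 0 had an edgeR adjusted p under 0.05 (0.0%), 151 had an unadjusted p under 0.05, the smallest adjusted p was 0.512, and DESeq2 called 0. The summed UMIs per library were 92713, 261623, 202887 and 157020. All the gene lists named above gave 0 calls, but some could give none. The Hox, peptide, glutamatergic, granule cell, striatal, microglia and cholinergic lists had 0 genes tested. Purkinje cell and oligodendrocyte markers had 1 gene tested each, and cortical interneuron markers had 2. Tested genes numbered 8 in the glycine list, 9 in the GABA-A list and 21 in the glutamate receptor list. Glra1 was at 324 and 233 CPM in WT and 207 and 121 CPM in cKO (log2 change -0.71, SE 0.35, edgeR adjusted p 0.995).

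The 5 genes with the smallest p were Rorb, Kcnip4, Galntl6, Zfp521 and Chd7. Rorb, a nuclear receptor gene, was at 32.4 and 22.9 CPM in WT and 148 and 172 CPM in cKO, from 3, 6, 30 and 27 UMIs, with a log2 change of 2.59 (SE 0.45, edgeR adjusted p 0.512). Kcnip4, which encodes a subunit of A-type potassium channels, was at 3408 and 3681 CPM in WT and 6698 and 6821 CPM in cKO (0.91, SE 0.18, edgeR adjusted p 0.672). Galntl6 was at 3301 and 2947 CPM in WT and 1740 and 1337 CPM in cKO (-1.04, SE 0.21, edgeR adjusted p 0.688). The WT and cKO libraries did not overlap in these 3 genes, as they did not in 1156 of the 3576 genes tested.

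**Figure D5:**
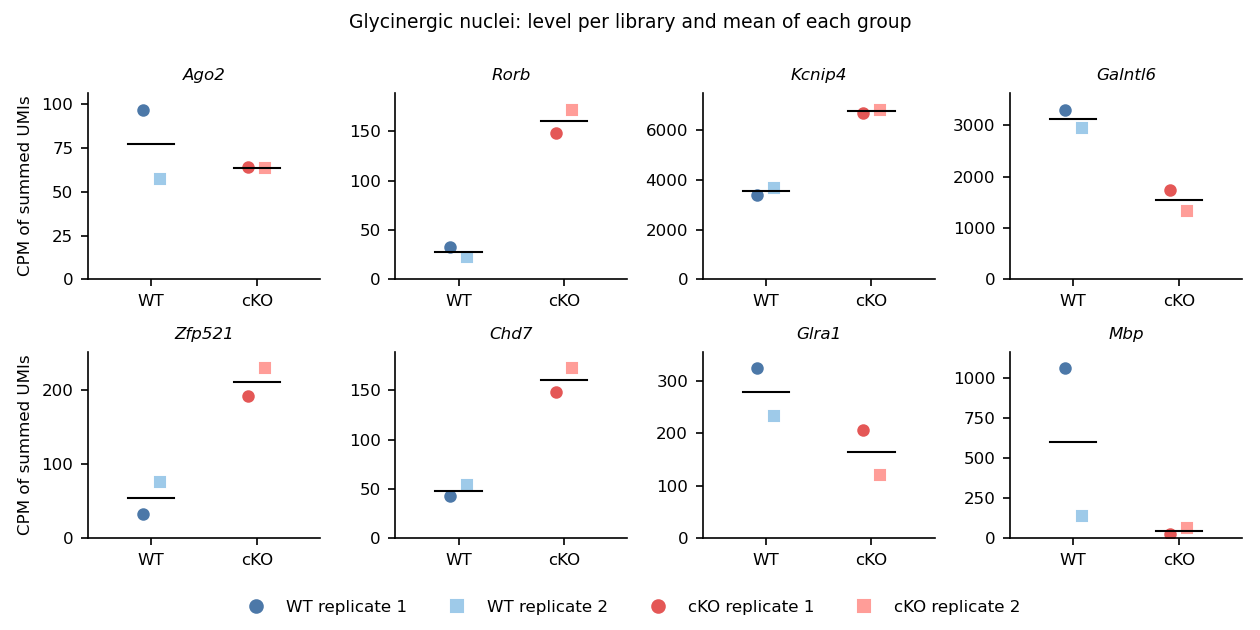
Level of 8 genes in glycinergic nuclei per library (points) and mean of each group (line), in CPM of summed UMIs. The Ago2 values of cKO lie between those of WT, none of the 5 genes with the smallest p passes the adjusted threshold, and Mbp is high in WT replicate 1.

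Leaving out 1 library changed these calls. Omission of WT replicate 1 gave 6 calls, of WT replicate 2 gave 10, of cKO replicate 1 gave 14 and of cKO replicate 2 gave 3, where the lone library of a group is assumed to vary like the other. Rorb passed with WT replicate 1 left out (2.74, edgeR adjusted p 0.00799), with cKO replicate 1 left out (2.72) and among the 64 nuclei of cluster 18 (3.26, edgeR adjusted p 0.0117), but not in the other 2 cases of a left-out library. Within cluster 18 Adarb2 passed as well (1.43, edgeR adjusted p 0.0117). Of the 10 genes without WT replicate 2, 8 were lower in cKO, among them 5 mitochondrially encoded genes and the oligodendrocyte genes Mbp and Bcas1. Mbp was at 1057 CPM in WT replicate 1, 138 in WT replicate 2, and 29.6 and 63.7 CPM in cKO (-3.60, SE 0.87, edgeR adjusted p 0.808 over the 4 libraries), and its part in the other differences was not tested.

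The difference between the genotype changes of glycinergic and other inhibitory nuclei was tested as an interaction. Of 8689 genes, 0 passed (0.0%) by edgeR and 0 by DESeq2, 398 had an unadjusted p under 0.05, and the smallest adjusted p was 0.121. With each library omitted in turn there were 10 calls (no WT replicate 1), 5 (no WT replicate 2), 13 (no cKO replicate 1) and 7 (no cKO replicate 2). The 5 genes with the smallest p were Rorb (2.87, SE 0.49, edgeR adjusted p 0.121), Kcnip4 (1.24, SE 0.22, edgeR adjusted p 0.121), Rab27b, Adamts19 and Satb1. For Ago2 the difference was -0.40 (SE 0.48, edgeR adjusted p 0.999).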

How the data were processed

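The deposited files hold raw UMI counts per gene and barcode from 4 single-nucleus 10x 3′ libraries. Per the submitters' processing notes, the authors used Cell Ranger 4.0.0, Seurat 3.2.3 and GRCm38; the barcodes were used as deposited, with 32286 features. Nuclei needed 500 UMIs or more and a mitochondrial share under 5%. Counts were summed per library and nucleus set, filtered (filterByExpr, minimum count 10), scaled by TMM and tested with edgeR 4.0.16 (quasi-likelihood, two-sided, Benjamini-Hochberg over all genes tested, threshold 0.05, R 4.3.3), with the library as a block between sets and no block between genotypes. DESeq2 1.42.0 was an alternative. SEs were derived from the log2 difference and F. CPM were computed per library from the summed UMIs. Nuclei were clustered with scanpy 1.11.5 (2000 variable genes, 30 components, 15 neighbours, Leiden resolution 1). Scrublet marked 565 doublets (0.8% per 1000 barcodes), 2 of them among the 84 nuclei, which were kept and left out in an alternative. Thinning drew 1000 UMIs per nucleus. Shares were compared with an exact permutation test (scipy 1.17.1).

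Named genes were the 15 with the smallest p in each direction among those called with at least 50 CPM in the higher set, the 5 smallest p where none was called, Ago2, and members of the gene lists. A gene named outside this rule is one of the cluster leaders or of the calls without 1 library, chosen after values were seen. The members and lists were chosen with earlier results of these data known. The test was also run on simulated data, whose outcome is not given here. Alternatives were other scaling, no filter, stricter or looser rules, no doublets and each library left out. Some genes are not reported here.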

Additional observations from a re-analysis of the deposited data

How the results depend on the processing

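Against other inhibitory nuclei, 333 genes passed; DESeq2 gave 192, no filter 574 (85 higher, 489 lower, so 14.8% higher against 35.7%), at least 3 UMIs of Gad1, Gad2 and Slc32a1 in both sets 180 (13.9% higher), at least 1 in the comparison set 722, nuclei with 2 or more Slc6a5 UMIs 308 (20.1% higher), cluster 18 alone 35 (48.6% higher), and leaving out 1 library 167 to 280. Against cerebellar inhibitory nuclei, 878 became 557 with DESeq2 and 680 to 780 without 1 library. Against Slc17a6 nuclei, 271 became 114 with DESeq2, 501 with no filter (13.2% higher against 32.1%), 95 within cluster 18 and 88 to 239 without 1 library. Between genotypes, 0 became 6 with no filter, 2 within cluster 18 and 3 to 14 without 1 library. The interaction, at 0, became 10 with no filter, 6 with 2 or more Slc6a5 UMIs, 1 within cluster 18 and 5 to 13 without 1 library. The difference in share, 0.248 percentage points, was 0.0319 with 2 or more Slc6a5 UMIs and 0.0457 with nuclei thinned to 1000 UMIs. It was 1.45 as a share of nuclei with at least 3 UMIs of Gad1, Gad2 and Slc32a1, and 0.101 to 0.394 without 1 library. The Ago2 change between genotypes was -0.59 to 0.13 without 1 library, positive without WT replicate 1. Fewer genes or libraries enter some of these settings; otherwise the cause was not tested. With the replicate number as a block, 0 genes passed between genotypes. Same-numbered libraries deviated with a correlation of -0.0536 over 3576 genes. With 2 libraries a group, this value cannot tell whether equal numbers mark a pair. Over 102 gene values, 1202 recomputed values kept direction and side of the threshold, 25 lost the call, 24 gained one and 1 changed sign. Depth limits what 84 nuclei and 2 libraries a group can show: transcripts at few UMIs were not tested.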

Other observations

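The 73 nuclei with an Slc6a5 UMI and no UMI of Gad1, Gad2 or Slc32a1 were shallower than the glycinergic nuclei, with a median of 2983 UMIs against 7109.5. Of these 73 nuclei, 13 had a Hox UMI, 17 had Glra1, 3 had Pax8 and 25 had Syt2. The 36 nuclei left out for 3 or more cerebellar genes had a median of 3655 UMIs, and 4 of them had a Hox UMI, 8 had Glra1 and 24 had Syt2. Nuclei outside the rule on both sides thus held the same transcripts in part.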
